A study of Rattus norvegicus with 11 samples.

Results

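The genes of MHC class I and of the loading of its peptides were followed in rat peripheral white blood cells (WBCs). They were found by gene symbol in the deposited table, where 9 of 32623 genes matched, each on 1 row. The samples came from male Wistar rats that were 7 weeks old when the study began, and RNA was extracted after lysis of the red blood cells. Normal samples (n = 3) were from healthy rats without injection. The other samples were from 4 rats with collagen-induced arthritis (CIA), a model of rheumatoid arthritis, made by injecting bovine type II collagen in incomplete Freund's adjuvant into a hind paw with a boost on day 7. Each CIA rat gave a Nampt++ sample on about day 8 (n = 4), when the study's PCR found its Nampt raised, and a Nampt+ sample on about day 14 (n = 4), when it was back at the level of the healthy rats. No gene was altered in any rat. Samples were thus grouped by Nampt, the enzyme that makes nicotinamide mononucleotide for NAD, and status and day cannot be told apart. In the deposited FPKM values, reads scaled by gene length and by the sample's total, Nampt ranged from 13.5 to 32.9 in Normal, from 10.1 to 46.5 in Nampt++ and from 11.4 to 36.9 in Nampt+ samples, so the groups overlapped.

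MHC class I molecules show short peptides from inside the cell to CD8 T cells and are read by NK cells too. A heavy chain pairs with B2m, the light chain. Peptides cut by the proteasome are carried into the endoplasmic reticulum by the Tap1 and Tap2 transporter, trimmed there by the aminopeptidase Erap1 and loaded with the help of Tapbp (tapasin), which bridges the transporter and the heavy chain. Nlrc5 is a transactivator of class I genes. In the rat the heavy chains are encoded in the RT1 complex, with the RT1-A region holding the classical class Ia genes and other regions many class Ib genes, among them RT1-S3 and RT1-N3. These genes are known to be raised by interferons, and nucleated blood cells express them broadly.

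Sequences before the start of 7 members were found in the RefSeq promoter table of the GRCr8 assembly, and are shown because an element through which interferons are known to act stood in 6 of them. RT1-A2 is shown for another element of class I genes. Nlrc5 and Erap1 were not matched. The whole 250 bases before the start are given for Tap1 (chr20:4668544-4668793, minus strand), Tap2 (chr20:4652297-4652546, minus strand) and Tapbp (chr20:4967878-4968127, minus strand), whose levels moved together across samples by Pearson r, less so by rank. Shorter windows are given for B2m (chr3:129549165-129549204, plus strand), RT1-S3 (chr20:2675401-2675440, plus strand), RT1-N3 (chr20:2666267-2666306, plus strand) and RT1-A2 (chr20:4872682-4872722, plus strand). All run 5′ to 3′ along the gene's strand. Capitals mark the core of the interferon-stimulated response element, searched on both strands as GAAA, 2 bases of any kind and GAAA again. In RT1-A2 they mark the kappa B site of the class I enhancer, 11 bases long and searched on both strands.
Tap1: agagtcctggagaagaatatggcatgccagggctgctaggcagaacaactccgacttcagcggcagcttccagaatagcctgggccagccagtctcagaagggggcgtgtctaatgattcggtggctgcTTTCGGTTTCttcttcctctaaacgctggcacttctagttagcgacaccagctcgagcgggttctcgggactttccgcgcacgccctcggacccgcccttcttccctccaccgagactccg
Tap2: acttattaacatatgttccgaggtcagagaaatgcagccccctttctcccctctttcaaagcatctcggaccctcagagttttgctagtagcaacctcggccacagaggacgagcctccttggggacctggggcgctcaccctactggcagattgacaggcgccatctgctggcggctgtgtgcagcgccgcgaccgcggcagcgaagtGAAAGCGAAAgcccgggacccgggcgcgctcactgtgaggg
Tapbp: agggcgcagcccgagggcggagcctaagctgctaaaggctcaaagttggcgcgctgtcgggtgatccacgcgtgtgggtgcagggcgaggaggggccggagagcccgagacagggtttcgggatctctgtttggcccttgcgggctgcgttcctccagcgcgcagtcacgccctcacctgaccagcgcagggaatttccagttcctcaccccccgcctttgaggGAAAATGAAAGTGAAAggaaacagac
B2m: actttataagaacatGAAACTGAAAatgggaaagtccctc
RT1-S3: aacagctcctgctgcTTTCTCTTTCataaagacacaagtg
RT1-N3: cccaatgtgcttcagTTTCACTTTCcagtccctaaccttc
RT1-A2: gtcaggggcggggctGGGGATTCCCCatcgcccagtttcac

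The core of the interferon-stimulated response element stood in 6 of the 7 sequences and in 3.41% of all 33469 sequences of 250 bases in the table. Its first base lay 150 bases before the start in B2m, 121 in Tap1, 41 in Tap2, 112 in RT1-S3 and 207 in RT1-N3, while Tapbp held 2 overlapping matches, 26 and 20 bases before it. RT1-A2 held no match to these exact letters in this window. Looser spellings of the element were not searched, so whether RT1-A2 holds one was not tested. Its kappa B match began 174 bases before the start, and 20 of the 33469 sequences (0.0598%) hold those letters. The gamma-activated site, TTC and GAA with 3 bases of any kind between them, stood in none of the 7 sequences and in 7.67% of all. The short element TGACG was found in B2m, RT1-A2 and RT1-N3 (18.2% of all sequences), and ATTGG, the reversed CCAAT box, in B2m, RT1-A2, RT1-S3 and RT1-N3 (34% of all). Matches of letters are a description and show no binding.

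Total counts per sample were between 65340027 and 85819418, and the members' differences between rats exceed counting error by far. Leukocyte markers were present in every sample, with Cd3e of T cells at 64.4 to 217 FPKM, Cd79b of B cells at 50.8 to 352, Csf3r of neutrophils at 42.4 to 1072 and Lyz2 of monocytes at 3978 to 13492. Haemoglobin genes still took 6.43% to 39.8% of the counts. In bulk samples such as these, fewer cells of a type and less RNA per cell cannot be told apart. Over 11242 genes, same-numbered samples did not deviate from their group means together in rats 1 and 2. The correlation of deviations was -0.27 within rat 1 and -0.24 within rat 2, against 0.23 within rat 3 and 0.086 within rat 4. The highest value of any pairing, 0.61, was that of rat 2 at Nampt++ with rat 1 at Nampt+. Results within rats are therefore given for all 4 rats and for rats 3 and 4.

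B2m was by far the most abundant member. Its mean over the 11 samples was 3213 FPKM, against 270.0 for RT1-A2, 163 for RT1-S3, 59.1 for Tapbp, 36.3 for Tap2, 35.3 for Tap1, 16.5 for RT1-N3, 8.04 for Erap1 and 7.23 for Nlrc5. The steps from B2m to RT1-A2, from RT1-S3 to Tapbp, from Tapbp to Tap2, from Tap1 to RT1-N3 and from RT1-N3 to Erap1 held in 11 of 11 samples. RT1-A2 was above RT1-S3 in 9 of 11. Tap2 was above Tap1 in 5 of 11 and Erap1 above Nlrc5 in 6 of 11, so these neighbours did not differ beyond their spread. The rows of Tap1 and Tap2 were thus at about the same level per length, with the transactivator and the trimming enzyme at the bottom of the order.

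**Figure D1:**
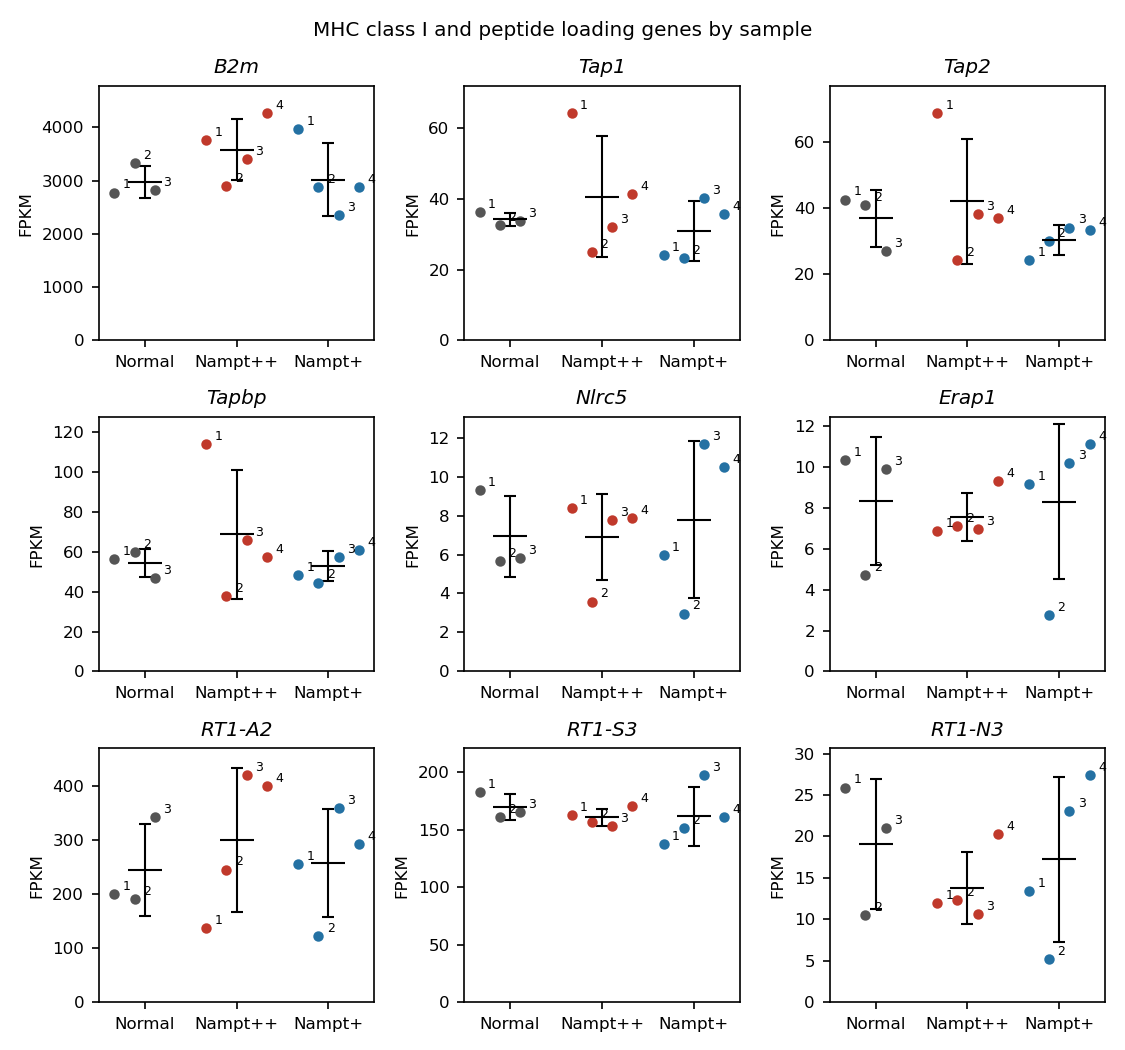
FPKM (y axis, from 0) of each member in each sample. Points are samples with their rat numbers, horizontal lines are group means and bars are SD (n = 3, 4 and 4). In all panels the groups overlap, and Tap1, Tap2 and Tapbp are highest in the Nampt++ sample of rat 1.

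The heavy chains differed in how much they varied. RT1-A2 (ENSRNOG00000030712, 20:5374985-5378539 as deposited) stood at 201, 192 and 343 FPKM in the Normal samples, at 138, 246, 420.3 and 399.5 in Nampt++ samples (CIA rats in order of number, here and for the other genes) and at 255, 122, 360.0 and 293 in Nampt+ samples. Every group had both high and low samples. The row lies inside that of RT1-A1 (20:5351605-5418019) on the same strand, and how reads shared by them were counted is not known. RT1-A2 held between 65.3% and 85.2% of the sum of both rows in each sample. RT1-S3 (ENSRNOG00000000777) was the steadiest member, with 182, 161 and 165 FPKM in Normal, 162, 157, 153 and 170.1 in Nampt++ and 137, 151, 197 and 161 in Nampt+ samples. The highest of its levels was 1.44 times the lowest. Its class Ib neighbour RT1-N3 (ENSRNOG00000000795) varied most of the members on this scale, 5.23-fold. It was at 25.9, 10.5 and 21.0 FPKM in Normal samples, at 11.9, 12.4, 10.6 and 20.3 in Nampt++ and at 13.4, 5.24, 23.1 and 27.4 in Nampt+ samples. In the CIA rats it was thus low in 3 of 4 Nampt++ samples, but the lowest value of all was in the Nampt+ sample of rat 2.

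The light chain B2m (ENSRNOG00000017123, 3:114087287-114093309 as deposited) was at 2776, 3325 and 2820.3 FPKM in Normal samples. It was at 3757, 2900.1, 3404 and 4267 in Nampt++ samples and at 3977, 2873, 2351 and 2888 in Nampt+ samples. The Nampt++ samples reached higher than the Normal ones, yet 1 of 4 lay within their range. B2m was between 1.99 and 4.29 times the sum of 21 RT1 class I heavy chain rows, a sum of 669 to 1253 FPKM. This ratio was 3.07 ± 0.738 (SD, n = 3) in Normal, 3.38 ± 0.362 (SD, n = 4) in Nampt++ and 3.24 ± 1.06 (SD, n = 4) in Nampt+ samples.

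The transporter and its partner had their peak in 1 sample. Tap1 (ENSRNOG00000000457) was at 36.2, 32.6 and 33.6 FPKM in Normal, at 64.2, 25.0, 32.0 and 41.3 in Nampt++ and at 24.1, 23.3, 40.3 and 35.7 in Nampt+ samples. Tap2 (ENSRNOG00000046031) was at 42.5, 40.9 and 27.1 in Normal, at 68.5, 24.3, 38.2 and 36.8 in Nampt++ and at 24.1, 29.9, 34.1 and 33.2 in Nampt+ samples. Tapbp (ENSRNOG00000029500) was at 56.4, 59.99 and 46.8 in Normal, at 114, 37.9, 65.9 and 57.4 in Nampt++ and at 48.3, 44.6, 57.5 and 60.9 in Nampt+ samples. In the Nampt++ group these genes were highest in rat 1 and lowest in rat 2, which set the width of that group. A second row named LOC103689996, annotated as antigen peptide transporter 2 as Tap2 is, had a similar level (mean 32.8 FPKM), and Tap2 held 46.5% to 56.1% of the sum of both. Tap1 was 0.425 to 0.641 times that sum, so whether the subunits are at the same level depends on whether the second row is counted with Tap2. The Tapbp row overlaps an antisense gene with a mean of 5.38 FPKM, and RT1-S3 and RT1-N3 overlap 1 with a mean of 1.53 FPKM.

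Erap1 (ENSRNOG00000009997) was at 10.4, 4.73 and 9.90 FPKM in Normal samples, at 6.86, 7.11, 6.96 and 9.33 in Nampt++ samples and at 9.16, 2.76, 10.2 and 11.1 in Nampt+ samples. Its Nampt++ levels sat between the extremes of the other groups. Nlrc5 (ENSRNOG00000048222) was at 9.32, 5.66 and 5.84 in Normal, at 8.40, 3.59, 7.76 and 7.87 in Nampt++ and at 5.98, 2.97, 11.7 and 10.5 in Nampt+ samples. The sample of rat 2 was the lowest of its group for both statuses of this transactivator.

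The first comparison asked what differed between CIA rats at Nampt++ status and healthy rats. None of the 9 members was called, a call being a ratio of group means over 2 or under 0.5 with an unadjusted p under 0.05 in edgeR's quasi-likelihood test. The thresholds are those of the study's methods. Of all 11219 genes tested, 0.686% were called. No member had an unadjusted p under 0.05, against 1.57% of all genes, and none had its groups apart, against 1.1%. The largest differences were those of RT1-N3, with 13.8 ± 4.37 (SD, n = 4) in Nampt++ against 19.1 ± 7.85 FPKM (SD, n = 3) in Normal samples, and of RT1-A2, with 301 ± 134 against 245 ± 84.9. For RT1-N3 the log2 fold change was -0.48 ± 0.27 (SE; edgeR adjusted p 0.999921), and for RT1-A2 it was 0.31 ± 0.39. Leaving out rat 3 from the Nampt++ group took the RT1-A2 value to 0.055 (unadjusted edgeR p 0.893), and leaving out rat 1 took it to 0.56 (p 0.0595). B2m came to 3582 ± 576 against 2974 ± 305 FPKM, and its log2 fold change of 0.17 had a 95% interval from -0.51 to 0.85. Of the members, 5 had a fold change above 0 and 4 below, and their median of 0.060 stood beside 0.0018 for all genes. Without Normal 2, the RT1-N3 difference was -0.67 with an unadjusted edgeR p of 0.047, still short of the fold required, and without Normal 1 it was -0.17 with a p of 0.533. In the fit without Normal 2, 1026 of all 11303 genes had an unadjusted p under 0.05. RT1-N3 moved with the T cell markers described below, whose sum was 695 to 1087 FPKM in Nampt++ and 558 to 1385 in Normal samples, and their part in the difference was not tested.

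The comparison of Nampt+ with Normal samples gave still smaller differences. Again 0 of 9 members were called, beside 0.497% of 11269 genes, none had an unadjusted p under 0.05, beside 0.87%, and none had its groups apart, beside 0.444%. Tap2 had the lowest log2 fold change, -0.24 ± 0.38, from 30.3 ± 4.50 FPKM (SD, n = 4) against 36.8 ± 8.48 (SD, n = 3). The highest was that of B2m, 0.087 ± 0.42, from 3022 ± 684 against 2974 ± 305 FPKM. RT1-S3 and Erap1 had values of -0.0022 and -0.045. The median over members was -0.033, against -0.0027 over all genes. Here 3 members had a value above 0 and 6 below.

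The comparison of Nampt+ with Nampt++ samples, taken from the same rats, asked what changed as Nampt went down. It called 0 of 9 members and 0.642% of 11219 genes, with an unadjusted p under 0.05 for 0 members and 2.28% of genes, and the groups were apart for no member and for 0.41% of genes. Tap1 was at 30.8 ± 8.46 FPKM in Nampt+ against 40.6 ± 17.1 in Nampt++ samples (SD, n = 4 each), and Tap2 at 30.3 ± 4.50 against 42.0 ± 18.8. Their log2 fold changes were both -0.29, with SE of 0.27 and 0.33, and that of Tapbp was -0.25 ± 0.30. Without rat 1's Nampt++ sample those of Tap1 and Tap2 came to -0.017 and 0.0024, so the lower means rested on that sample. RT1-N3 had the highest value, 0.28 ± 0.30. The median over members was -0.076, against -0.00021 over all genes, with 4 values above 0 and 5 below.

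Within rats, the direction differed from animal to animal. The change of Tap1 from Nampt++ to Nampt+, on the log2(FPKM + 1) scale, was -1.37 in rat 1, -0.10 in rat 2, 0.32 in rat 3 and -0.20 in rat 4. For RT1-N3 it was 0.15, -1.10, 1.05 and 0.42, and for Erap1 0.37, -1.11, 0.49 and 0.23. RT1-A2 changed by 0.89, -1.0003, -0.22 and -0.45. For B2m the values were 0.082, -0.013, -0.53 and -0.56, so that the larger changes, in rats 3 and 4, were both downward. With the rat as a block in edgeR, 0 of 9 members were called. With rats 3 and 4 alone, RT1-N3 had a log2 fold change of 0.65 ± 0.23 with an unadjusted p of 0.030 and an adjusted p of 0.441, below a mean ratio of 2, and the other members had p over 0.05. Of all 11441 genes in that fit, 1161 had an unadjusted edgeR p under 0.05. Two-sided exact permutation of log2(FPKM + 1) gave p from 0.143 to 1 over the 27 comparisons of a member between groups, where 0.02857 is the smallest possible. The sign-flip permutation within rats gave 0.375 to 1, where 0.125 is the smallest possible.

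The intervals show how large a difference these samples could have held. In 20 of the 27 comparisons the 95% interval of the edgeR log2 fold change lay inside a change of 2-fold in either direction. For Tap1, Nlrc5, Erap1 and RT1-S3 this was so in all 3 comparisons. In Nampt++ against Normal samples the intervals of RT1-N3, Tapbp and RT1-A2 reached beyond it, the widest being from -0.60 to 1.21 for RT1-A2. In Nampt+ against Normal samples those of Tap2, RT1-N3 and B2m did, and between Nampt+ and Nampt++ only that of Tap2, from -1.04 to 0.46.

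**Figure D2:**
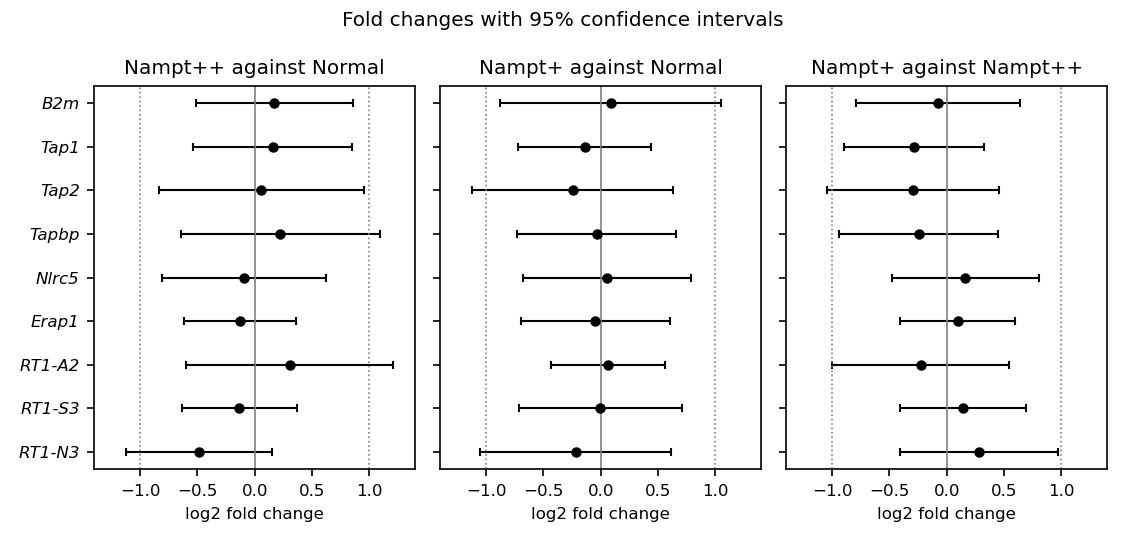
The log2 fold change (x axis) of each member (y axis) in the 3 comparisons by edgeR. Points are estimates, bars are 95% confidence intervals, and dotted lines mark a change of 2-fold. In each panel the bars all cross 0, and 20 of the 27 lie between the dotted lines.

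Other listed genes of the pathway were not called either. Of 57 further listed genes tested, 0 were called in any of the 3 comparisons. They were other heavy chain and class I-like genes, chaperones and peptidases of loading, the immunoproteasome, class I transcription factors, and interferons with their receptors and signalling genes. Of all genes, 0.686%, 0.497% and 0.642% were called in the order given above. At such shares 0 of 57 says little about the lists. Among 17 other heavy chain and class I-like genes (the latter being Mr1, Cd1d1, Fcgrt and Procr), RT1-T24-1 alone had an unadjusted edgeR p under 0.05 against Normal samples. It was at 5.70, 6.06 and 5.33 FPKM in Normal and at 1.58, 3.69, 2.63 and 4.32 in Nampt++ samples. Its groups were thus apart, as were those of 1.1% of all genes. The log2 fold change was -0.97 ± 0.40 (edgeR p 0.042, adjusted p 0.999921), with a ratio of means above 0.5. Of the 14 transcription factors, Ciita, the class II transactivator and a relative of Nlrc5, was at 8.53 ± 3.55 FPKM in Nampt+ and 5.22 ± 0.55 in Nampt++ samples (log2 fold change 0.69 ± 0.20, edgeR p 0.0082, adjusted p 0.999561) and was not called. The 12 chaperone and peptidase genes had medians of 0.023, -0.0086 and 0.0047 in the 3 comparisons in the order given above. For the 5 immunoproteasome and activator genes the medians were 0.19, -0.13 and -0.28. For 9 genes of interferons, their receptors and their signalling (the last being Jak1, Jak2, Tyk2 and Socs1) they were 0.25, 0.040 and -0.27. Of either list 0 genes were called. Psmb9, the immunoproteasome subunit whose gene lies beside Tap1, was highest in the same sample as Tap1, at 137 FPKM in the Nampt++ sample of rat 1 against 43.97 to 73.2 in the other samples. Irf1, an interferon-induced activator of class I genes, was at 459 FPKM there against 78.4 to 157 elsewhere. From the immunoproteasome and transcription factor lists, Psmb10, Psme2, Irf2, Irf7, Irf9, Stat2 and Rela were also highest there in FPKM. Psmb8, Psme1, Rfx5, Rfxap, Rfxank, Ciita, Irf8, Nfkb1, Creb1 and Nfyb were not. Ifng was at 0 FPKM in that sample against 0.731 to 16.1 elsewhere. The same sample had the lowest haemoglobin share of counts, 6.43%, and the part of this in its FPKM levels was not tested.

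Although the groups did not separate the members, the samples did, and they fell into sets that varied together. Across the 11 samples, which came from 7 rats and are thus not all independent, Tap2 and Tapbp had a Pearson r of 0.93 and a Spearman rho of 0.72 (permutation p 0.00025 and 0.016, adjusted over 36 pairs 0.0045 and 0.097). Without the 2 samples farthest from the median r was 0.85. Tap1 followed Tapbp (r 0.87, rho 0.56, adjusted permutation p 0.020 and 0.229) and Tap2 (r 0.85, rho 0.65, adjusted 0.020 and 0.148). The Nampt++ sample of rat 1 was again at the top. Without the 2 farthest samples these r were 0.63 and 0.70, and on log2 CPM with TMM scaling 0.88 and 0.92. By rank Tap1 was closest to RT1-S3 (r 0.53, rho 0.85, adjusted permutation p 0.241 and 0.031). Of the 36 pairs, only Erap1 with RT1-N3 had an adjusted p under 0.05 by both r and rho. Erap1 and RT1-N3 formed a second set, with r 0.93 and rho 0.99 (permutation p 1e-05 for both, the smallest that 100000 permutations can give, adjusted p 0.00036). Their r was 0.93 without the 2 farthest samples and 0.95 within groups. On the FPKM scale B2m had r between -0.54 and 0.34 with the other members. On log2 CPM with TMM scaling its r was 0.55 with Tap2, 0.56 with Tapbp, -0.68 with Erap1, -0.71 with RT1-N3 and 0.53 with RT1-S3 (-0.54 in FPKM), so its place beside the sets depended on the scale.

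**Figure D3:**
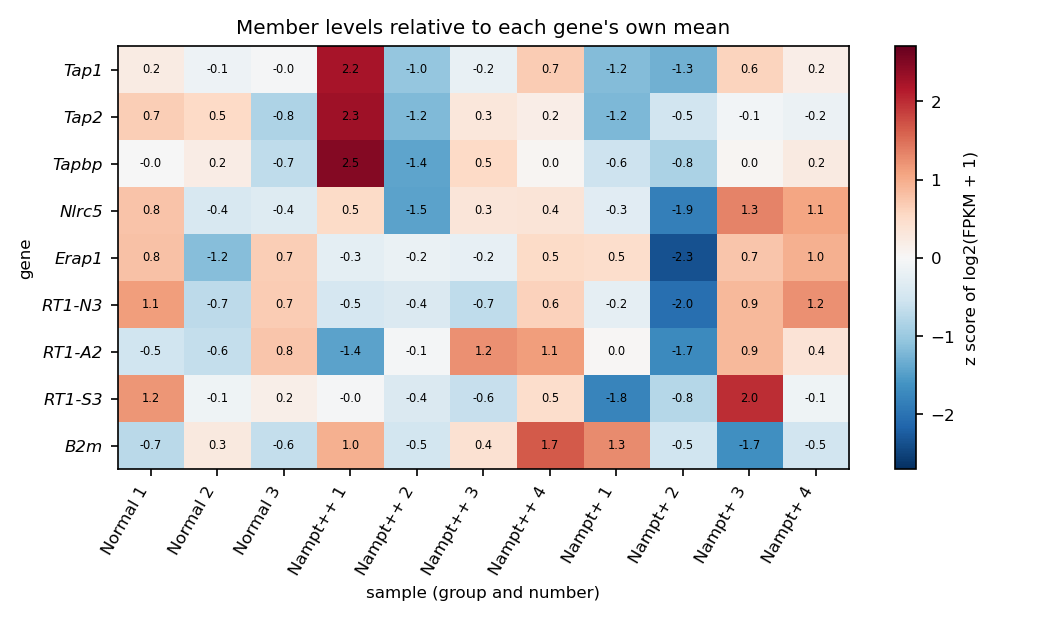
Each member's log2(FPKM + 1) as a z score over the 11 samples (colour and number; rows are genes, columns are samples). Tap1, Tap2 and Tapbp are between 2.2 and 2.5 in the Nampt++ sample of rat 1, and Erap1, RT1-N3 and Nlrc5 are at -1.9 or lower in the Nampt+ sample of rat 2.

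Of 63 relations with marker sums and the haemoglobin share, 2 had an adjusted p under 0.05 by both r and rho, those of Erap1 and RT1-N3 with T cell markers. Erap1 varied with the summed FPKM of 10 T cell markers (r 0.96, rho 0.85, permutation p 2e-05 and 0.0014, adjusted over 63 relations 0.00126 and 0.0441), as did RT1-N3 (r 0.88, rho 0.86, permutation p 9e-05 and 0.0012, adjusted 0.00284 and 0.0441). Without the 2 samples farthest from the median, Normal 2 and the Nampt+ sample of rat 2, r was 0.82 and 0.75. The T cell sum was 400.3 FPKM in that Nampt+ sample and 558 in Normal 2, against 695 to 1385 elsewhere, and all 10 markers were detected. Within groups r was 0.96 and 0.89, and on log2 CPM with TMM scaling 0.87 and 0.73. Tap2 and Tapbp had r of 0.80 and 0.77 with the sum of 9 neutrophil markers (permutation p 0.0025 and 0.0044, adjusted 0.0425 and 0.0549), but rho of 0.62 and 0.59 with adjusted p of 0.296 for both. For Tap1, of the same set, r was 0.51 and rho 0.16 (adjusted p 0.297 and 0.769). Within groups r was 0.87 for Tap2, 0.77 for Tapbp and 0.51 for Tap1. On log2 CPM with TMM scaling it was 0.91, 0.95 and 0.84, so the relation of Tap1 depended on the scale. The neutrophil sum was 40199 FPKM in the Nampt++ sample of rat 1 and 2077 to 15506 elsewhere, and without the 2 farthest samples r was 0.63 and 0.58 for Tap2 and Tapbp. S100a9 and S100a8 made up most of the sum, with 25724 and 12479 FPKM in that sample. Other markers of the list differed from them, since Camp and Ngp were highest in the Nampt+ sample of rat 2, at 79.5 and 62.2 FPKM against 37.9 and 13.9 in the Nampt++ sample of rat 1, and Ltf was at 0.180 FPKM or less in all samples. With the sum of platelet markers B2m had r 0.76 and rho 0.65 (permutation p 0.0064 and 0.034, adjusted 0.0579 and 0.296), and RT1-S3 had r -0.79 and rho -0.54 (permutation p 0.0059 and 0.094, adjusted 0.0579 and 0.331). Without the 2 farthest samples these r were 0.49 and -0.26, and with TMM scaling they were 0.83 and 0.17. These relations were across samples of mixed cells, and the part of cell shares in the members' levels was not tested.

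**Figure D4:**
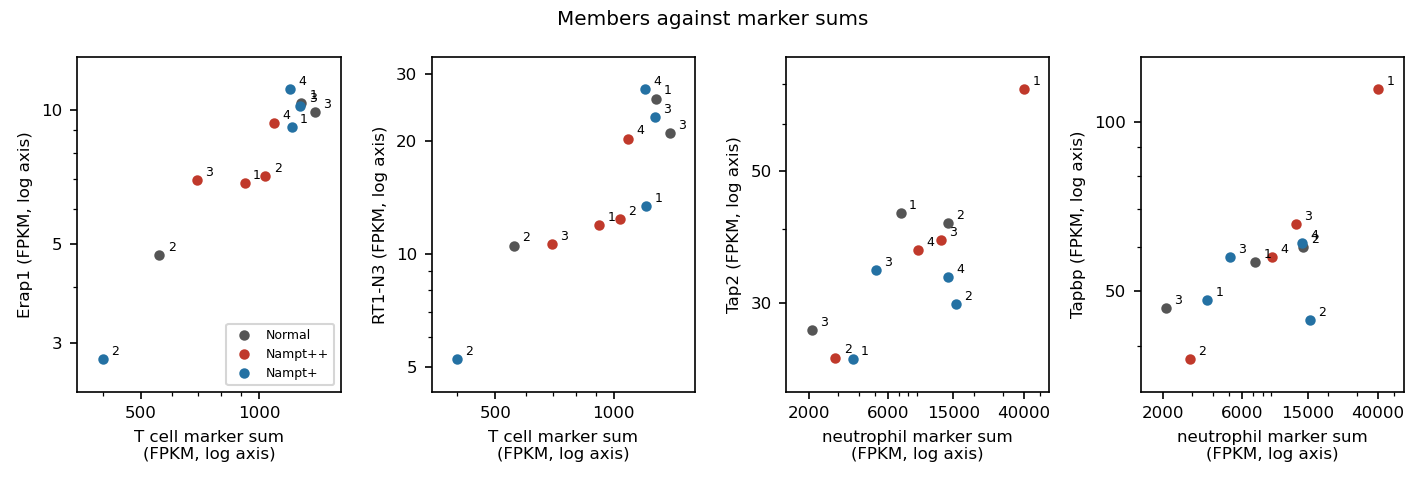
FPKM of Erap1 and RT1-N3 against the summed FPKM of T cell markers, and of Tap2 and Tapbp against that of neutrophil markers, all on log axes. Each point is a sample with its number, coloured by group. Erap1 and RT1-N3 are lowest in the Nampt+ sample of rat 2 at a T cell sum of 400.3, and Tap2 and Tapbp are highest in the Nampt++ sample of rat 1 at a neutrophil sum of 40199.

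The Nampt+ sample of rat 2 had the lowest FPKM of 5 of the 9 members, namely Tap1, Nlrc5, Erap1, RT1-A2 and RT1-N3. It was also the sample with the highest share of haemoglobin counts, 39.8%. On log2 CPM with TMM scaling it was the lowest for Erap1 and RT1-N3 and the highest for B2m and RT1-S3, so its place depended on the scale for the other members. Over all samples Tap1 had r -0.80 and rho -0.79 with the haemoglobin share (permutation p 0.0027 and 0.0056, adjusted 0.0425 and 0.0901), and r was -0.68 without the 2 farthest samples. FPKM divides by a total that includes haemoglobin reads, and the part of this in the members' levels was not tested.

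Of 4923 genes with a mean of at least 10 FPKM, those most like the mean z score of the 9 members over the 11 samples included Selenot, Pfdn2, Itch, Fam168b, Spns1, Cotl1 and Mtmr12, with r between 0.952 and 0.977. The mean z score itself had r -0.86 with the haemoglobin share, and the part of that share in the likeness was not tested. Those most like Nlrc5 were Adar, which edits double-stranded RNA (r 0.976), Itpkb (0.964) and Rapgef6 (0.963).

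The set of heavy chain genes that a sample expressed differed more between samples than the summed level did. RT1-CE3 was at 2.02 FPKM in Normal 2, at 2.14 in the Nampt++ sample of rat 2 and at 1.82 in the Nampt+ sample of rat 2, and at 23.8 to 64.0 in the other 8. RT1-CE10 was at 79.7 in Normal 3, at 68.0 in the Nampt++ sample of rat 2 and at 77.7 in the Nampt+ sample of rat 1, and at 3.51 to 28.4 elsewhere. RT1-N2 was at 0.179 in the Nampt++ sample of rat 1 and at 0.0763 in the Nampt+ sample of rat 2, and at 2.53 to 49.1 in the others. None of these followed group. RT1-CE5, RT1-CE7 and RT1-A1, like RT1-S3, were within 3-fold over all samples, with means of 152, 79.8 and 68.9 FPKM, while RT1-CE4 (mean 41.6), RT1-T24-4 (82.7), RT1-T24-3 (24.9) and RT1-M3-1 (14.9) varied between 3.82-fold and 6.80-fold. Reads from near-identical class I genes and alleles can be split between rows, so each row's level is uncertain to that extent.

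**Figure D5:**
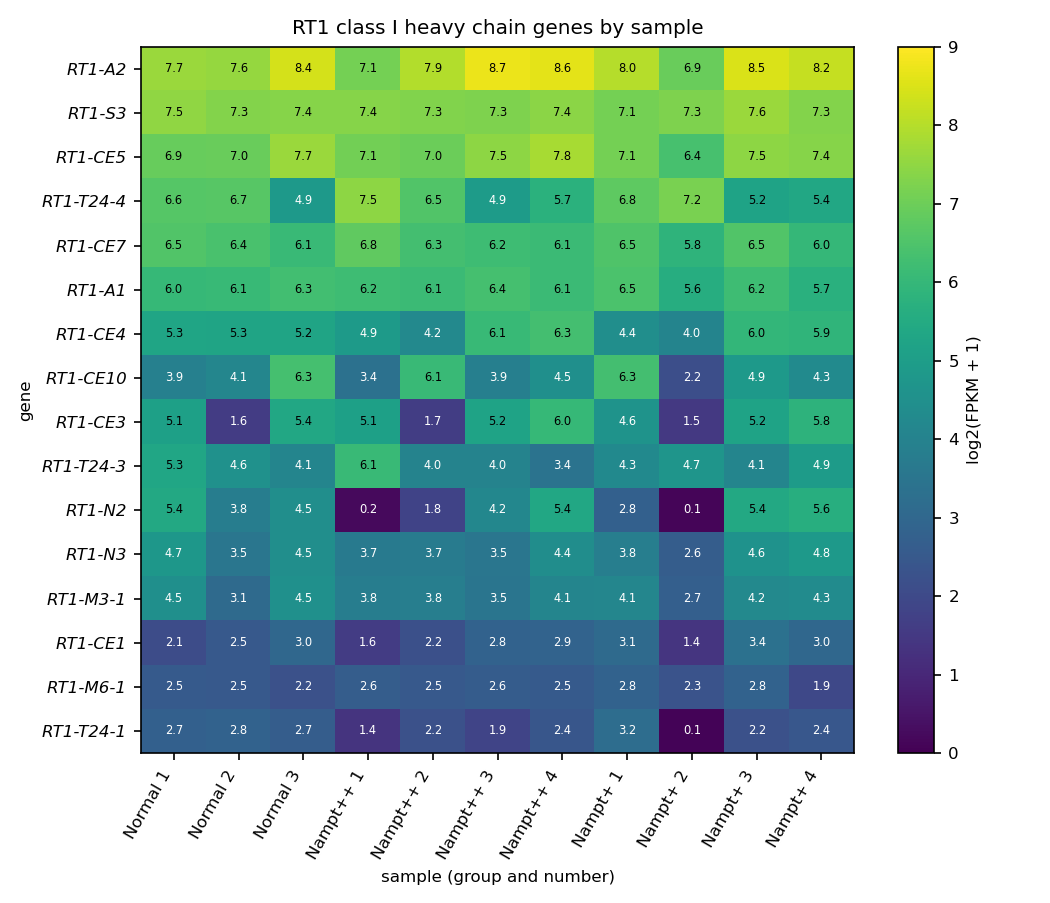
The log2(FPKM + 1) of 16 RT1 class I heavy chain genes (rows) in each sample (columns), as colour and number. RT1-A2 and RT1-S3 are high throughout, while RT1-CE3, RT1-CE10 and RT1-N2 are low in some samples and high in others of every CIA group.

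The heavy chain rows were also compared between samples of the CIA rats. Levels over these 16 genes were taken as deviations from each gene's mean over all samples, Normal ones included. The deviations of the Nampt++ sample of rat 1 had r 0.72 with those of the Nampt+ sample of rat 2. With those of the Nampt+ sample of its own rat r was 0.11. By size of difference this Nampt++ sample was nearer to its own rat, with 5 of 16 genes over 2-fold apart against 6. The median absolute log2 difference was 0.476 against 0.761. For rat 2 the Nampt++ sample had r 0.60 with the Nampt+ sample of rat 1, with 1 of 16 genes over 2-fold apart, and 0.44 with that of its own rat, with 6 of 16. In rats 3 and 4 the values within the rat were 0.71 and 0.76, with 2 and 1 genes over 2-fold apart. The Nampt++ sample of rat 4 had a higher r, 0.84, with the Nampt+ sample of rat 3, with 0 genes over 2-fold apart. By r the closest Nampt+ sample was thus that of the same rat for rat 3 alone. By median absolute log2 difference it was that of the same rat for rats 1, 3 and 4, but not for rat 2. For rat 4 this difference was 0.2945 within the rat and 0.3212 with rat 3. For rat 2 it was 0.6574 within the rat and 0.2497 with rat 1. Whether the labels hold was not tested.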

How the data were processed

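RNA-seq of peripheral WBCs from 3 healthy rats and 4 CIA rats at both statuses was analysed (11 samples). The labels' extraction protocol speaks of retinas, in conflict with their own sample sources and the study's methods, and leukocyte markers were found. The authors deposited whole-number read counts per gene, without normalization, and FPKM values, in which 0.0001 stands for 0 and was read as 0. The submitters' processing notes name cutadapt 1.9, HISAT2 2.0.4 and StringTie 1.3.4. The genome build and the treatment of reads shared by near-identical genes are not given in the sources used here, so positions are as deposited and such genes are uncertain. Whether strand was used in counting is not given either.

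Counts were tested with edgeR 4.0.16 in R 4.3.3 (quasi-likelihood, TMM) where mean FPKM in the samples compared reached 1, with p adjusted by Benjamini-Hochberg over all of them, and tried on simulated counts of known folds. Other settings were DESeq2 1.42.0, limma 3.58.1 on log2(FPKM + 1), upper quartile scaling, other filters, haemoglobin genes left out, all groups in one fit, a pseudocount of 0.1 and each sample left out. Permutation tests and correlations used log2(FPKM + 1).  Within a group the lowest chi-square per degree of freedom between samples was 271, so none were duplicates. Same-numbered Nampt++ and Nampt+ samples are from one rat by the study's methods, which gave the block, and the check of this is given with the results. Controls and CIA rats share only numbers.

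The members and lists were chosen with earlier results of these data known. All members are named, other listed genes at an unadjusted p under 0.05, other heavy chain genes whose mean FPKM reached 10, and the 8 and 3 genes most like the members and Nlrc5, of which 1 is not reported here. Psmb9, Irf1, the list genes named beside them and LOC103689996 were singled out after their values were seen. Of the marker lists, called genes were Ppbp of platelets (lower in Nampt++ than Normal), Gzma of NK cells (lower in Nampt+ than Normal) and Hba-a3 of erythroid cells (higher in Nampt+ than Normal). Cd5 of T cells had an unadjusted p of 0.0028 for Nampt+ against Nampt++ and was not called, and 0 genes of the B cell, monocyte, neutrophil and class II lists were called. With adjusted p under 0.05 edgeR gave 0 genes in each comparison (176, 98 and 256 at an unadjusted p under 0.05), and DESeq2 gave 5, 4 and 5.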

Additional observations from a re-analysis of the deposited data

Results flagged for a closer look

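In 3 of 38 groups of 4 samples (the 9 members and 10 other RT1 heavy chain genes, in FPKM) 1 sample stood far from the rest by Dixon's criterion, and chance alone gives about 1 in 20. Nlrc5 was at 3.59 in the Nampt++ sample of rat 2 and at 7.76 to 8.40 in the other 3. Erap1 was at 9.33 in the Nampt++ sample of rat 4 and at 6.86 to 7.11 in the others. RT1-T24-3 was at 67.1 in the Nampt++ sample of rat 1, where the neutrophil marker sum was also highest, and at 9.87 to 15.4 in the others, and the part of those cells in it was not tested. The groups of 3 Normal samples were not examined in this way.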

How the results depend on the processing

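No member was called in any of the 3 comparisons under any setting. With the main one included, there were 17 settings for each comparison with Normal samples and 20 between the CIA groups. At a mean FPKM of at least 10, 7 of the 9 members were tested. Of 666 fold changes and levels recomputed, 89 turned direction, 80 of them when 1 sample was left out. None of those turned had a p under 0.05, the smallest being 0.0857. Scaling on the log2 CPM turned the level differences of Tapbp (0.011 for Nampt+ against Normal), Erap1 (0.053) and RT1-S3 (0.087, both for Nampt+ against Nampt++). The fold change of Tap2 for Nampt++ against Normal was -0.0018 with upper quartile scaling and -0.0045 at a mean FPKM of at least 10. That of RT1-S3 for Nampt+ against Normal was 0.012 by DESeq2 and 0.0082 with all groups in one fit. By limma those of Erap1 and RT1-S3 for Nampt+ against Nampt++ were -0.0045 and -0.0025. In each case the value lay near 0. The cause was not tested. In 3 cases an unadjusted p fell below 0.05, which were RT1-N3 without Normal 2 (-0.67), RT1-N3 in rats 3 and 4 (0.65) and the Tap2 level for Nampt+ against Nampt++ when rat 2 was left out of Nampt++ (-0.59, with an exact p of 0.02857). The edgeR fit without Normal 2 gave such a p for 1026 of 11303 genes, and that of rats 3 and 4 for 1161 of 11441.

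Leaving out 1 sample at a time turned the direction of many edgeR log2 fold changes, among them that of Tap2 for Nampt+ against Nampt++ (-0.29 with all samples), and for Nampt++ against Normal they ran as follows, B2m -0.020 to 0.48, Erap1 -0.30 to 0.098, Nlrc5 -0.33 to 0.17, RT1-S3 -0.30 to 0.015, Tap1 -0.11 to 0.31, Tap2 -0.24 to 0.34, Tapbp -0.088 to 0.51. For Nampt+ against Normal they ran as follows, B2m -0.19 to 0.40, Erap1 -0.21 to 0.17, Nlrc5 -0.17 to 0.31, RT1-A2 -0.050 to 0.17, RT1-N3 -0.45 to 0.090, RT1-S3 -0.28 to 0.15, Tap1 -0.30 to 0.016, Tap2 -0.56 to 0.040, Tapbp -0.27 to 0.25. For Nampt+ against Nampt++ they ran as follows, B2m -0.34 to 0.095, Erap1 -0.020 to 0.27, Nlrc5 -0.019 to 0.30, RT1-A2 -0.48 to 0.0081, RT1-S3 -0.13 to 0.26, Tap2 -0.60 to 0.0024, Tapbp -0.44 to 0.063. For the difference of mean log2(FPKM + 1) the ranges that crossed 0 are given likewise, and for Nampt++ against Normal they ran as follows, Erap1 -0.39 to 0.11, Nlrc5 -0.14 to 0.21, Tap1 -0.086 to 0.36, Tap2 -0.15 to 0.34, Tapbp -0.045 to 0.48. For Nampt+ against Normal they ran as follows, B2m -0.14 to 0.11, Erap1 -0.39 to 0.32, Nlrc5 -0.19 to 0.37, RT1-A2 -0.18 to 0.34, RT1-N3 -0.63 to 0.18, Tapbp -0.15 to 0.031. For Nampt+ against Nampt++ they ran as follows, Erap1 -0.18 to 0.39, Nlrc5 -0.18 to 0.40, RT1-A2 -0.53 to 0.13, RT1-N3 -0.15 to 0.57, RT1-S3 -0.10 to 0.072, Tapbp -0.52 to 0.00032.

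The replicate block of the 4 rats left 0 members called, with values from -0.29 for Tap2 to 0.21 for RT1-N3, and changed no other call. Summing Tap2 with its copy, or RT1-A2 with RT1-A1, chosen after seeing the data as was the block of rats 3 and 4, changed no call either. Summing rows that share a symbol gave no other value, since each member has 1 row. The small number of rats limits what could be seen.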
